A study of Mus musculus with 12 samples.

Results

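The windows of 8 genes of the somites were examined in mouse cardiac progenitor cells in which the transcription factor GLI1 was induced. The genes were Pax1, Pax9, Nkx3-2, Sox9, Meox1, Pax3, Myf5 and Myod1, taken by name from 21900 protein-coding genes. Each window held the mm10 gene body and 50 kb on each side, and every listed H3K27ac interval and GLI1 site that touched it was counted. The induced cells, called dox here, were progenitors of the line GLI1-FTA (strain A2Lox.cre) given 500 ng/ml doxycycline for 24 hours and harvested on day 6. The control cells were untreated cells of the same line and day, so both carry the inducible tagged GLI1. Cells of both groups were differentiated in culture from mouse embryonic stem cells. Acetylation of histone H3 at lysine 27 (H3K27ac), found at promoters and enhancers in use, was immunoprecipitated from 2 dox and 2 control samples, and tagged GLI1 was captured on streptavidin beads from 2 dox samples. All samples come from 1 cell line.

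The lists are pools of both replicates, so no value per sample and no spread between samples can be given, and no difference between dox and control was tested. The dox list held 76437 H3K27ac intervals, the control list 67463, and the GLI1 list 2605 sites. The fold enrichment of a peak is the authors' ratio of its read pileup over the background around it. The library depth is unknown, but the uniform background recovered from the values was 3.63 reads in dox and 2.83 in control, a ratio of 1.28. How far this reflects more reads in dox was not tested. A peak over that background needed a pileup of at least 11 reads in dox and 9 in control. In pooled cells, acetylation in fewer cells and weaker acetylation per cell cannot be told apart.

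In the embryo, Sonic hedgehog from the notochord and floor plate binds Ptch1, frees Smo and lets GLI factors activate their targets. In the ventral somite this signal helps to form the sclerotome, which gives rise to vertebrae and ribs, and it also takes part in the activation of Myf5 in the early myotome. Pax1 and Pax9 are paired-box factors of the sclerotome, and Nkx3-2 is a homeobox factor that acts after them in cartilage formation. Sox9 is the main transcription factor of cartilage, Meox1 a homeobox factor of the whole somite, Pax3 a paired-box factor of the dermomyotome, and Myf5 and Myod1 are determination factors of skeletal muscle. The cells were labelled as cardiac progenitors, not somite cells. Of 11 cardiac progenitor markers, 10 had an H3K27ac interval within 50 kb in both lists (Tbx5 had none). Of 6 markers of paraxial mesoderm and somite, 5 had one in dox and 4 in control, and of 4 skeletal muscle genes 3 and 2. Of 5 neural genes, 3 had one in dox and 2 in control, and of 3 pluripotency genes 2 in each. Over all protein-coding genes, 80.3% had an interval within 50 kb in dox and 79.7% in control, so the cardiac count within 50 kb lies near the background and does not tell the cell type. Within 1000 bp of a gene end, a region was listed for 6 cardiac, 2 neural and 1 pluripotency genes in each list. The same held for 1 somite marker in dox and 2 in control, and for 0 skeletal muscle genes in either list. The share of all genes with a region that close is not given here.

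Most of the 8 loci lay in chromatin without a listed peak. Pax1, Pax9, Nkx3-2, Pax3 and Myod1 had no H3K27ac interval of either list within 50 kb, Myf5 had 1 weak interval in dox alone, and only Sox9 and Meox1 had intervals in both conditions. Windows without an interval made up 17.1% of all protein-coding genes and 22.3% of the 10707 genes with at most 2 other genes in the window, a class that holds all 8. No GLI1 site lay in any of the 8 windows. A site lay in 12.9% of the windows of all genes, so a count of 0 among 8 genes is near that background and is no result about these genes. Whether these genes are Hedgehog targets in these cells was not tested.

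**Figure D1:**
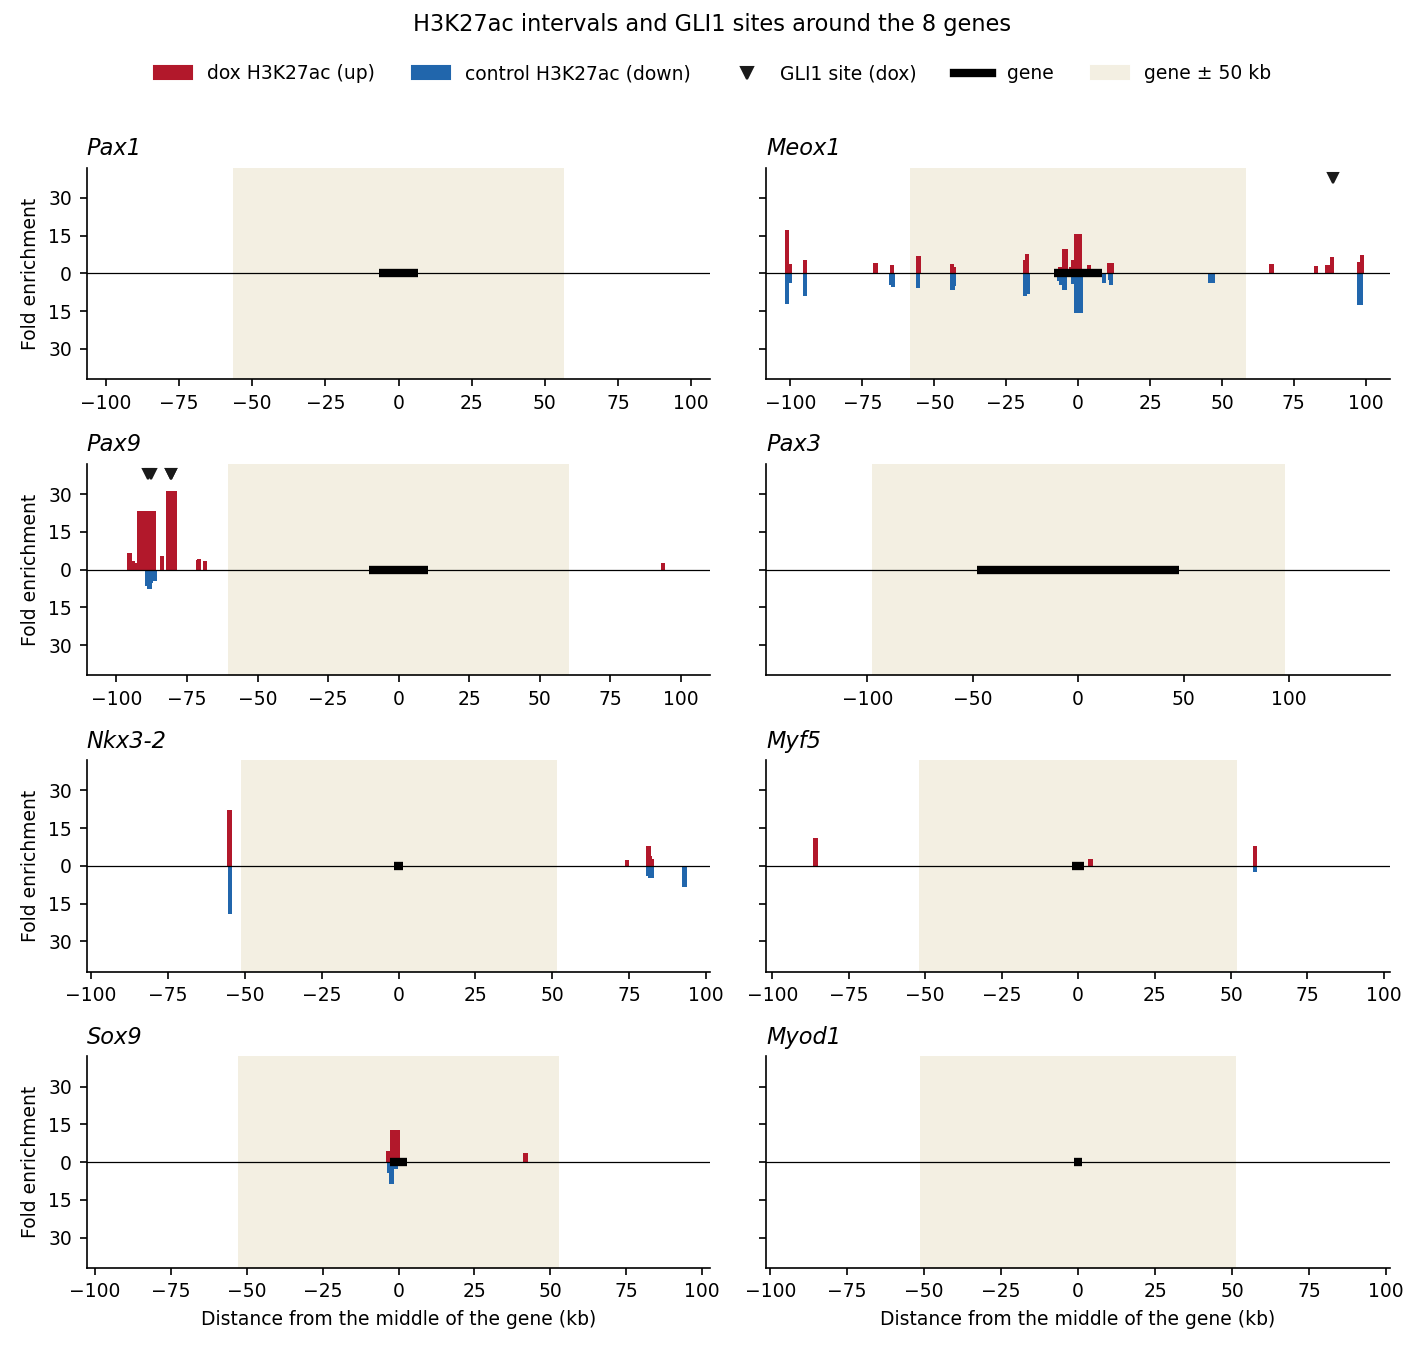
H3K27ac intervals around each gene, plotted by distance from the middle of the gene in kb; bars show the fold enrichment of each interval, upward in dox and downward in control, and triangles mark GLI1 sites of dox cells. Intervals under 1.5 kb are drawn 1.5 kb wide. Within the shaded 50 kb windows Sox9 and Meox1 have intervals in both lists and Myf5 has 1 in dox, while the 4 GLI1 sites near Pax9 and the 1 near Meox1 lie outside.

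The sclerotome factors Pax1, Pax9 and Nkx3-2 had no listed H3K27ac interval at the gene or within 50 kb in either condition. The promoter table, from RefSeq on GRCm38.p6, matched 4 of the 8 genes, these 3 and Myf5. Their 250 bases before the annotated start are shown because they are the promoters at which neither list held an interval and no GLI1 site was called; capitals mark the letters CCACCCA or their reverse complement TGGGTGG, the core of the GLI motif GACCACCCA. They lie at chr2:147364744-147364993 (Pax1, plus strand), chr12:56695221-56695470 (Pax9, plus strand), chr5:41764221-41764470 (Nkx3-2, minus strand) and chr10:107486135-107486384 (Myf5, minus strand), and each is printed along its gene's strand. The Nkx3-2 stretch adjoins the outer end of its gene. Those of Pax1, Pax9 and Myf5 lie inside the outer gene ends used here, before an annotated start within the gene. The sequence before the outer ends of Pax1, Pax9 and Myf5 is not shown.
Pax1 promoter: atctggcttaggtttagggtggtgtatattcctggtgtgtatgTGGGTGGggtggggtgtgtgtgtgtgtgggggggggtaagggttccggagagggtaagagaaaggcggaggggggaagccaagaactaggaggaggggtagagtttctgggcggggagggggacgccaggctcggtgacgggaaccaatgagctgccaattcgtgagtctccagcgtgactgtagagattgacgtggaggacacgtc
Pax9 promoter: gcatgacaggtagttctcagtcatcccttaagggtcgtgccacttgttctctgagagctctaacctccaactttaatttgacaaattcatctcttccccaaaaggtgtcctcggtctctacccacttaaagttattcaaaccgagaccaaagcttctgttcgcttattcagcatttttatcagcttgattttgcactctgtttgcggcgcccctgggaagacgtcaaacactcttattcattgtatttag
Nkx3-2 promoter: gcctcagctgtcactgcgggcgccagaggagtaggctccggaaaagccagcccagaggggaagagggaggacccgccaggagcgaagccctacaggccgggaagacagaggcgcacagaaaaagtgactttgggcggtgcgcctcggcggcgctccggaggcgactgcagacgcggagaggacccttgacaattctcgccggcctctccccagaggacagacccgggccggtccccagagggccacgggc
Myf5 promoter: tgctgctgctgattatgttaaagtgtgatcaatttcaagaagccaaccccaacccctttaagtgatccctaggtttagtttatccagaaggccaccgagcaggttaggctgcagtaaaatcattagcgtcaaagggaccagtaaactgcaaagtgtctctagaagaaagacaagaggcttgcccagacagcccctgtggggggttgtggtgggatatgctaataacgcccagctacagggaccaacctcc

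On both strands, the full motif GACCACCCA was in none of the 4 promoters and in 0.225% of the 32851 promoters of the table. The core CCACCCA, which is part of the full motif, occurred once, at base 44 of the Pax1 stretch, and in 8.11% of all promoters. A match is a description of letters and not a binding site. By its deposited name the GLI1 list holds only sites with a Gli motif, so binding without one could not appear in it. The lack of a site and the lack of the motif are therefore not independent. Sox9, Meox1, Pax3 and Myod1 were not matched.

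Pax1 (chromosome 2, 147361930 to 147375049) had no interval of either list within 250 kb. Its nearest dox interval was 375620 bp away with a fold enrichment of 4.02, and its nearest control interval, in the same region near Kiz, 374944 bp away with 10.6, a log2 ratio of dox over control of −1.26. Ratios are given relative to the median over every shared region. The peak numbers of both lists skip 1 number in the stretch around Pax1, which measures 818299 bp in dox and 941141 bp in control. The position of the skipped peak is not known, so the empty window at Pax1 is less certain than the others. The nearest GLI1 site, with a −log10 q of 24.6, was 173601 bp to the left, inside Nkx2-2, a homeobox gene of the ventral neural tube, and lay in no interval of either list.

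Pax9 (chromosome 12, 56691693 to 56712824) had an empty window but a densely bound neighbour. Between 50 and 100 kb on its left, 8 dox-only regions, 1 shared region and 4 GLI1 sites lay around Nkx2-9, a homeobox gene of the floor plate region. A dox-only region at 56619781 to 56623568, 68125 bp from Pax9, had a fold enrichment of 31.3 and held 2 sites, at −log10 q values of 195 and 156. The shared region over Nkx2-9, 75435 bp from Pax9, had 23.1 in dox and 7.57 in control, a log2 ratio of 1.74, and held the other 2 sites. The first region beyond the window, 57930 bp away, was weaker, with 3.46 in dox alone. On the right, the 1 region in this range was in dox alone, 83168 bp away inside Slc25a21, with 2.59.

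Nkx3-2 (chromosome 5, 41761483 to 41764220) had strong acetylation just beyond its window. A shared region at Rab28, 52838 bp to the left, had a fold enrichment of 22.0 in dox and 18.9 in control, a log2 ratio of 0.35. On the right, inside Bod1l, a dox-only region 72815 bp away had 2.45, and a shared region 79502 bp away had 7.99 in dox and 3.92 in control, a log2 ratio of 1.16. The other 2 shared regions in this range had log2 ratios of −0.16 and −0.72. The strongest region on this side, 90857 bp away, was control-only with 8.35. These regions belong by position to other genes, and the nearest GLI1 site was 349590 bp away.

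**Figure D2:**
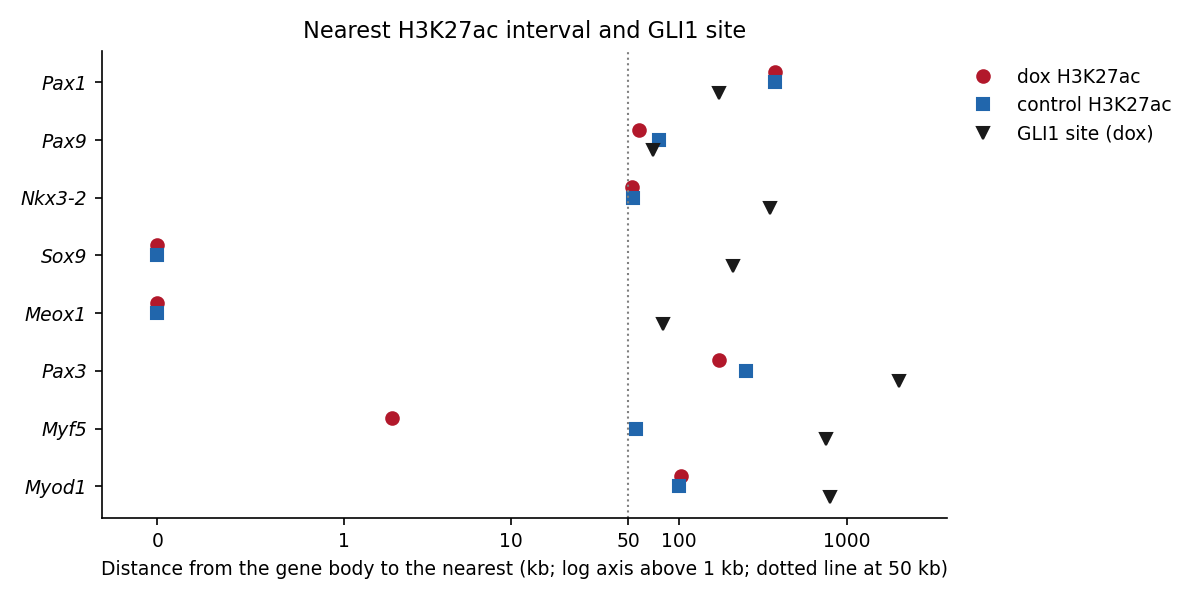
Distance in kb from each gene body to the nearest dox H3K27ac interval, control H3K27ac interval and GLI1 site of dox cells, on an axis that is linear up to 1 kb and logarithmic beyond. All 8 GLI1 sites lie to the right of the dotted 50 kb line, from 70009 bp at Pax9 to 2042986 bp at Pax3.

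Sox9 (chromosome 11, 112782210 to 112787757) was acetylated over the gene itself in both conditions. A shared region of 3393 bp (112782149 to 112785541) began 61 bp before the left end of the gene. Its strongest summit had a fold enrichment of 12.8 in dox (95% counting interval 9.90 to 16.3, from 64 reads) and 8.70 in control (6.22 to 11.9, from 38 reads), a log2 ratio of 0.69. The intervals, which cover counting error only, overlapped. The dox list covered all 3393 bp of this region with 1 interval, and the control list covered 1343 bp of it with 2. With a mean over the covered length in place of the highest summit, the log2 ratio was 1.07. A small shared region 141 bp to the left of the gene had 4.33 in dox and 4.18 in control, a log2 ratio of 0.18. A dox-only region 38747 bp to the right had 3.67, from 16 reads. In all, dox intervals covered 4821 bp of the Sox9 window at a mean fold enrichment of 10.2, and control intervals 1892 bp at 5.95.

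Meox1 (chromosome 11, 101877510 to 101894354) had the most regions of the 8 genes. Its window held 17, more than 89.3% of all gene windows, of which 11 were shared, 2 dox-only and 4 control-only. The strongest, 3056 bp inside the gene (101884482 to 101887537), had nearly the same fold enrichment in both lists, 15.7 in dox from 73 reads and 15.6 in control from 60 reads, a log2 ratio of 0.14. A second region inside the gene (101880263 to 101882404) had 9.76 in dox (7.49 to 12.5) and 6.52 in control (4.34 to 9.44), a log2 ratio of 0.72. The counting intervals of both regions overlapped between dox and control. Coverage of the window was 10656 bp in dox and 9857 bp in control, at mean fold enrichments of 8.89 and 8.86.

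To the left of Meox1, 3 of 5 shared regions had a log2 ratio below 0, all with overlapping counting intervals. The pair at 35101 and 34543 bp had 3.67 and 2.56 in dox, against 6.53 and 5.16 in control, with log2 ratios of −0.70 and −0.88. At 9843 bp the values were 5.19 in dox and 8.95 in control (−0.65), and in the neighbouring region at 8895 bp they were 7.78 in dox and 8.26 in control (0.05). To the right, at 2334 bp, a region had 4.16 in dox and 2.61 in control (0.80), the highest ratio of the window, but its control value rests on 9 reads. The strongest control-only region was 37509 bp to the right with 3.85, and the strongest dox-only one lay inside the gene with 3.53. Over the 11 shared regions the median log2 ratio was 0.05, with 7 above 0 and 4 below.

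Over both loci, the 13 shared regions of the 8 windows had log2 ratios from −0.88 to 0.80, with a median of 0.14. None reached 1 in either direction. Of all shared regions, 6.78% were higher in dox and 8.31% lower, so a count of 0 among 13 regions, 11 of them at Meox1, is near that background. The counting intervals of dox and control overlapped in all 13. The windows held 4 dox-only and 4 control-only regions, 19.0% each of 21, while dox-only regions made up 35.5% and control-only regions 27.1% of all 94481 regions. Of the 8 one-sided regions, 7 lay at Sox9 and Meox1.

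**Figure D3:**
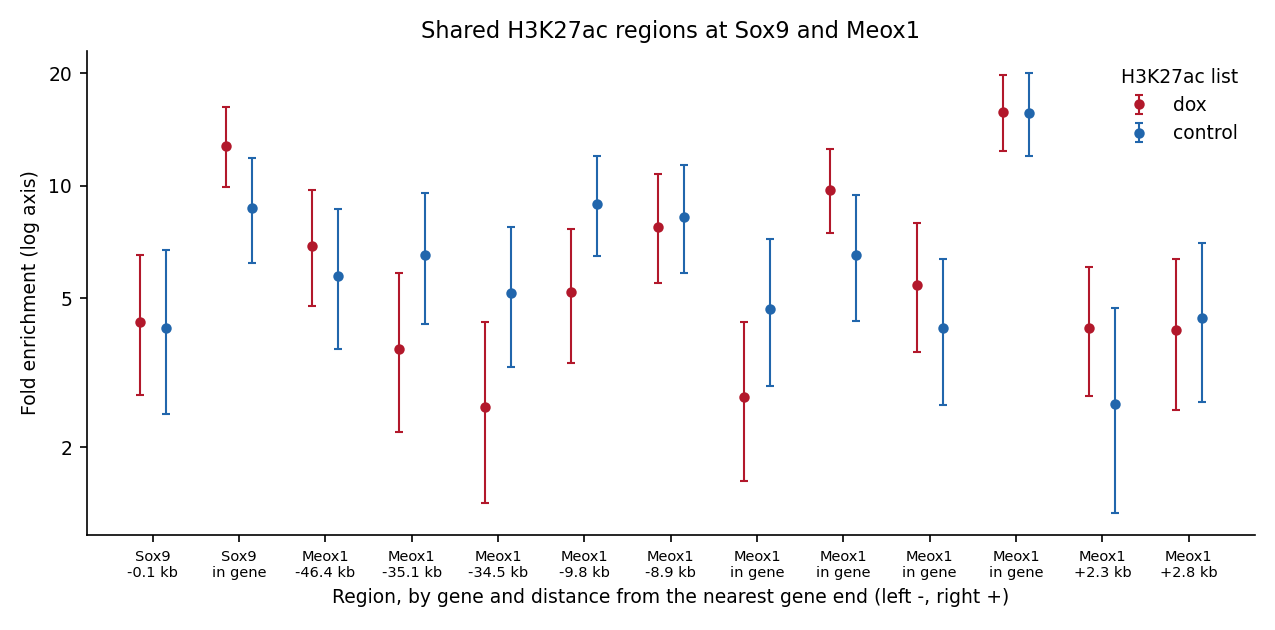
Fold enrichment on a log axis in the 13 shared regions at Sox9 and Meox1, from left to right along the chromosome within each gene; points are the strongest summit in dox and in control, and bars are 95% counting intervals of the recovered pileups. The bars of dox and control overlap in every region, and the strongest Meox1 region has 15.7 in dox and 15.6 in control.

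Pax3 (chromosome 1, 78101267 to 78197136) was the member farthest from any GLI1 site. Its 195870 bp window held no interval, the nearest dox interval was 172536 bp away with a fold enrichment of 2.76, and the nearest control interval 252576 bp away with 2.62. The nearest site, near Cul3, was 2042986 bp away.

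The muscle determination genes had 1 listed interval between them. Myf5 (chromosome 10, 107482908 to 107486927) had 1 dox-only region of 224 bp, 1955 bp to its right, with a fold enrichment of 2.59 from 11 reads, the smallest pileup the dox list holds. Just outside the window, 55182 bp to the right inside Ptprq, a shared region had 7.78 in dox and 2.37 in control, a log2 ratio of 1.84, and 82927 bp to the left, inside Lin7a, a dox-only region had 11.0. Myf6, the neighbouring muscle factor gene, has the Ptprq region and also the dox-only region beside Myf5 within its own 50 kb. The counts for Myf5 and Myf6 are therefore not independent. Myod1 (chromosome 7, 46376474 to 46379092) had its nearest interval of each list near Sergef, 102295 bp away in dox with 6.48 and 100674 bp away in control with 3.39. The dox interval belongs to a shared region with 14.6 in control, a log2 ratio of −1.04. No GLI1 site lay within 500 kb of Myf5, Myod1 or Pax3.

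Farther out, Sox9 had the most dox-only regions and the most GLI1 sites of the 8 genes. This range was added after the data had been seen. Within 500 kb of Sox9, which holds 1 other protein-coding gene, there were 49 dox-only, 12 shared and 8 control-only regions and 7 GLI1 sites. At least 7 sites in that range were found for 1.14% of all protein-coding genes, and a surplus of dox-only over control-only regions at least as large for 0.991%. Restricted to peaks past a −log10 q limit of 10, 17 dox-only and 1 control-only regions were left, and with the 50000 strongest intervals of each list 27 and 4. Of the 7 sites, 6 lay 211601 to 302452 bp to the right of the gene. The strongest, with a −log10 q of 267, lay in a dox-only region (113024520 to 113029448) with a fold enrichment of 24.2. The site nearest to the gene lay in a shared region with 13.3 in dox and 4.44 in control, a log2 ratio of 1.71, and one 268437 bp away (18.7) in a region with 11.4 in dox and 2.87 in control (2.12). The other 4 lay in no interval. Whether these regions act on Sox9 was not tested, and 5 of the sites are nearer to Slc39a11.

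Around the other members the balance within 500 kb differed in direction. Counting Sox9, dox-only regions outnumbered control-only ones at 6 of the 8 genes, against 55.5% of all genes. Pax1 had 11 dox-only, 2 shared and 0 control-only regions and 5 sites, 3 of them 402507 to 440999 bp away inside Kiz, where the dox-only regions with a site had fold enrichments of 17.3 and 20.3. Nkx3-2 had 12 dox-only and 1 control-only regions and 1 site. Pax9 had 17 and 4, with the 4 sites already described, and Myf5 had 11 and 5. At Pax3 the balance was the reverse, with 4 dox-only and 18 control-only regions, and at Myod1 there were 8 and 10. Meox1, in a stretch with 38 other genes, had 27 and 20, and 1 site, 79969 bp away inside Dusp3 (−log10 q 76.9) in a dox-only region with 6.48. Stretches with a skipped peak number touched this range at Meox1 (2 in dox, 3 in control), Myf5 (1 in control) and Pax1 (1 in each). The region counts of these genes may therefore be incomplete. At least 1 site within 500 kb was found for 5 of the 8 genes, near the 58.0% of all genes. Of the 18 sites counted over these genes, 13 lay in a dox interval and 2 in a control interval, where 75.0% and 25.0% of all 2605 sites did.

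**Figure D4:**
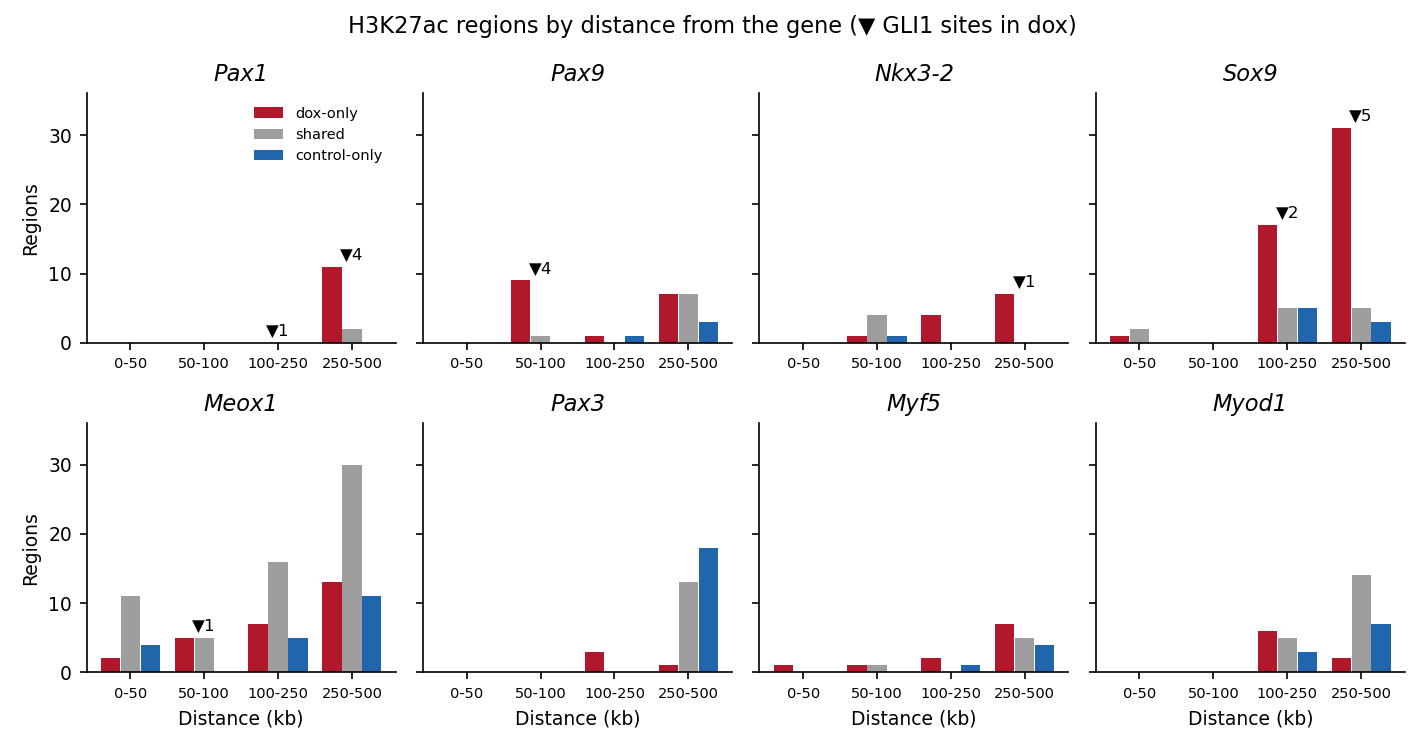
Number of dox-only, shared and control-only H3K27ac regions by distance from each gene in kb, with the number of GLI1 sites of dox cells above the bars. Sox9 has 31 dox-only regions and 5 sites between 250 and 500 kb, whereas Pax3 has 18 control-only regions there and no site.

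Other genes of the somite lineages were set beside the 8 by the same windows. Of 36 such genes, 5 had a GLI1 site within 50 kb (13.9%, against 12.9% of all genes) and 2, Uncx and Sim1, had no interval of either list. The 9 genes of the sclerotome and cartilage list had more dox-only than control-only regions in 7 cases and fewer in 0, against 38.8% and 27.9% of all genes. The median log2 ratio of their shared regions was above 0 in 6 of 7, against 58.8% of all genes with a shared region. In the myotome and dermomyotome list the split was 6 and 6 of 14, with medians above 0 in 1 of 8. In the list of paraxial mesoderm and segmentation it was 5 and 6 of 13, with medians above 0 in 6 of 12. The 1 median above 0 in the myotome and dermomyotome list was that of Myf6, from 1 shared region. The dox-only region of Myf6 is the one already described beside Myf5. The differences between the lists were not tested. The windows differ in length. Those of Sox5 (1053863 bp), Sox6 (669905 bp) and Runx2 (418811 bp) are the longest, where the median over all genes is 117146 bp. A longer window has more room for regions, so the shares of all genes are not a like comparison for these windows.

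The 5 genes with a site were Foxc2 and Sox5 with 4 each, and Lfng, Acan and Eya2 with 1 each. At Acan, which encodes the cartilage proteoglycan aggrecan, a site 16275 bp from the gene (−log10 q 191) lay in a dox-only region with 27.4. At Sox5, a cofactor of Sox9 in cartilage, 2 sites shared a dox-only region with 20.4. At Eya2, which encodes a transcriptional cofactor with roles in muscle, the site lay in a region with 7.68 in dox and 3.66 in control (1.20). Of these 11 sites, 9 lay in a dox interval and 0 in a control interval, beside the 75.0% and 25.0% of all sites.

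Among genes with at least 3 shared regions, Col2a1 (0.40), Dll3 (0.32) and Acan (0.20) had the highest median log2 ratios, and Eya2 (−0.83), Six4 (−0.54) and Foxc1 (−0.22) the lowest. Each of these windows also holds other protein-coding genes, 6 at Dll3, so the ratios belong to the windows and not to the named genes alone. Col2a1 encodes the main cartilage collagen and is a direct target of Sox9. For scale, the feedback genes Ptch1, Gli1 and Hhip had 10, 4 and 1 GLI1 sites in windows of the same kind, with 39, 7 and 2 dox-only regions and 0, 0 and 4 control-only regions. At Hhip, dox intervals covered 13908 bp at a mean fold enrichment of 17.6, and control intervals 4237 bp at 4.31. The values were 58659 bp at 26.5 and 18080 bp at 12.4 at Ptch1, and 15183 bp at 26.1 and 9824 bp at 18.8 at Gli1.

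**Figure D5:**
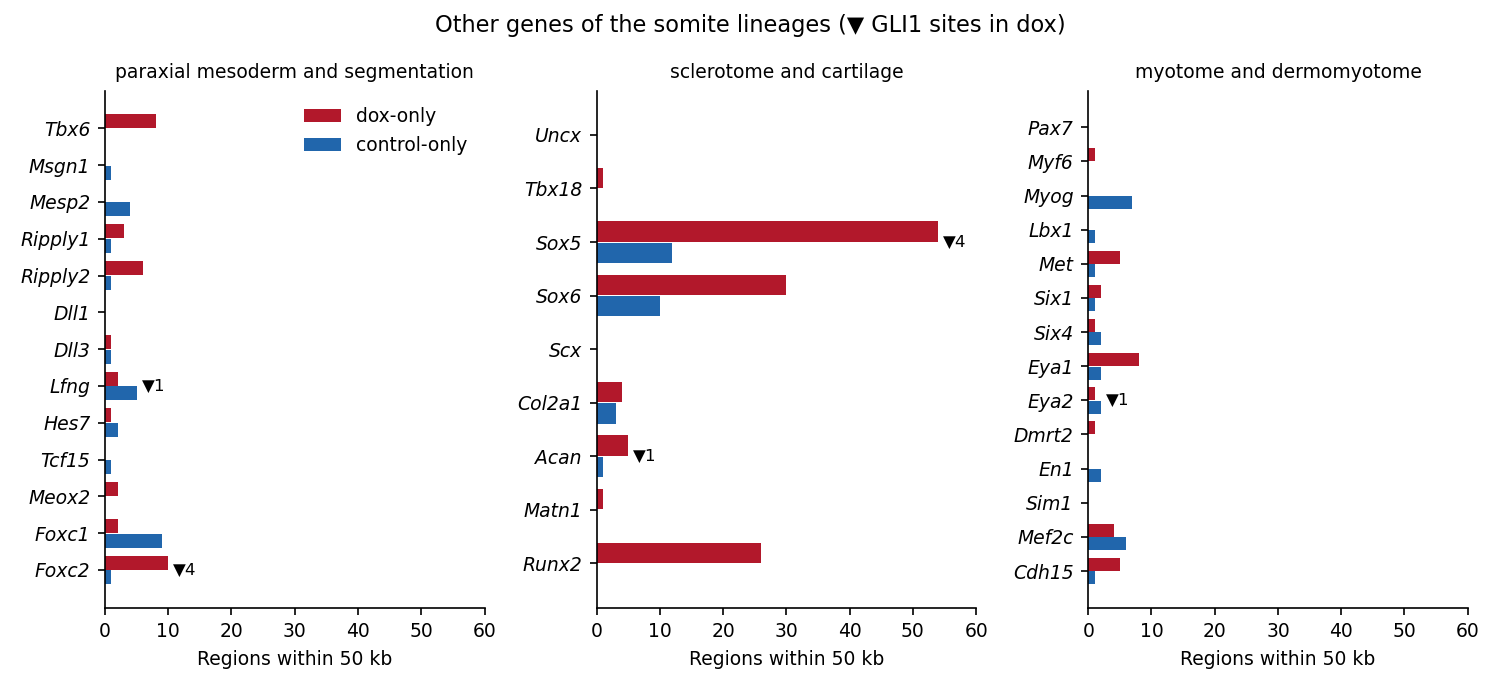
Number of dox-only and control-only H3K27ac regions within 50 kb of 36 other genes of the somite lineages in 3 lists, with the number of GLI1 sites of dox cells beside the bars. Sox5 has 54 dox-only and 12 control-only regions and 4 sites, and Foxc1 has 2 dox-only and 9 control-only regions and no site.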

How the data were processed

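H3K27ac and tagged GLI1 were profiled by chromatin immunoprecipitation and sequencing. The submitters' processing notes name mm10 and the tools MACS2 2.1.1, Bowtie2 2.3.2 and SAMtools 1.5, without their roles. The deposited names say that replicates were combined, that blacklisted regions were removed, and that GLI1 sites were replicated and hold a Gli motif. In the H3K27ac lists the deposited fold enrichment is a ratio per summit, and the deposited −log10 p and −log10 q (used here as a score of strength) are the authors' significance. The GLI1 list holds the authors' −log10 q per site.

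Summits of an interval were collapsed to the highest, and overlapping intervals of both lists (1 bp or more) were merged into dox-only, shared or control-only regions. The log2 ratio of the highest dox over the highest control fold enrichment had the median over every shared region (−0.13) subtracted, and a size of 1 was the limit for higher or lower. Fold enrichment has no common scale across lists. A whole-number pileup matching both deposited values to 0.01 was found for 100% of the 141743 dox and 126265 control summits searched (−log10 p under 250). Counting intervals are exact 95% Poisson intervals of these pileups, and depth was otherwise unknown. The merging and the pileup search were tested on simulated data. Of the 19810 genes with no skipped peak number in their window, which leaves out Pax1, 16.0% had no interval.

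Gene coordinates are those of GRCm38.p6, the assembly of mm10, as outer ends without exons or strand, so no exon or intron is named. The members and gene lists were chosen with earlier results of these data known. A gene of the sclerotome and cartilage list is not reported here. Named were all members, every GLI1 site in their windows, the strongest regions and extreme ratios per window, list genes with a site or among the 3 highest and 3 lowest medians, and 3 feedback genes. Python 3.11.15, pandas 2.3.3, numpy 2.4.6 and scipy 1.17.1 were used. Inputs and the control GLI1 pulldown were not analysed here.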

Additional observations from a re-analysis of the deposited data

How the results depend on the processing

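No paired analysis was possible because each list pools both replicates, and for the same reason no replicate could be left out. With a −log10 q of at least 10 in both lists the 8 windows held 1 dox-only, 5 shared and 2 control-only regions, and 6 windows had none. With 10 kb on each side 2 control-only regions were left. With 100 kb there were 20 dox-only and 24 shared regions, 3 windows with none, 3 shared regions with a log2 ratio of at least 1, and 5 GLI1 sites, 4 of them near Pax9. With width-weighted means 1 region, that over Sox9, reached 1, and without centring 1 region, at Meox1, reached −1. The causes were not tested. The median log2 ratio of the shared regions, 0.14, was 0.35 at a −log10 q of at least 10 and 0.0086 without centring, and that of Meox1, 0.05, was 0.23 and −0.09. Under the other alternatives the first lay between 0.11 and 0.16. The count of 0 GLI1 sites also held with 10 kb. Overlap of GLI1 sites with peaks, at other thresholds or with wider sites, gave no value because no site lay in the windows. An empty window means that no peak was listed, not an absence of acetylation. Over the uniform background this is a pileup of fewer than about 11 reads in dox or 9 in control. Over a higher local background, larger pileups can also go unlisted. At Pax1 the skipped peak number leaves open that a peak was removed.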

Other observations

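The genes in this section were chosen after their values had been seen. At Runx2, a transcription factor gene of bone formation, the 418811 bp window had 26 regions in dox alone, 2 in both lists, 0 in control alone and no GLI1 site, and the highest fold enrichment was 27.9 in dox and 16.4 in control. At the ends of Runx2 a region was listed in dox alone, with 9.22. At Sox6, which acts with Sox5 and Sox9 in cartilage, 30 regions were dox-only and 10 control-only, also without a site. At Myog, a differentiation factor of skeletal muscle, no region was dox-only, 7 were control-only and 2 were shared, which had a median log2 ratio of −1.80, and the highest fold enrichment was 2.81 in dox and 17.7 in control. At Tbx6, a factor of paraxial mesoderm, 8 regions were dox-only, 10 shared with a median log2 ratio of 0.16, and 0 control-only. Its window holds 7 other protein-coding genes, and those of Runx2, Sox6 and Myog hold 1 each. By position alone, the regions in these windows cannot be assigned to the named genes. Over all regions, 35.5% were dox-only and 27.1% control-only.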
